A study of Homo sapiens with 8 samples.

Results

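The genes of the unfolded protein response and of the ATF4 arm of the integrated stress response were examined in Ishikawa cells, an established human endometrial adenocarcinoma line, treated with a glucocorticoid, an estrogen or both. The set held 36 genes, taken by symbol, and all 36 were found among the 26364 genes of the count table. All 36 also passed the filter on low counts, which left 14201 genes to test.

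The study asked how signalling through the glucocorticoid receptor and the estrogen receptor interact in endometrial cancer cells. It holds 8 RNA-seq libraries in 4 groups of 2: vehicle (DMSO), 100 nM dexamethasone (a synthetic glucocorticoid), 10 nM 17-beta-estradiol, and 100 nM dexamethasone with 10 nM estradiol. All groups were kept in medium free of phenol red with charcoal-treated serum, which lowers the steroids supplied by the medium. The sample labels give a treatment of 8 hr and the treatment protocol gives 1 hr, so the exposure behind the values is uncertain. The labels do not say that replicate libraries were grown as independent cultures. The p-values therefore measure only library-to-library spread, which may be technical. Both combination columns of the count table carry the number 1. The one spelled like the title of replicate 1 was taken as that sample. The other matches no title and was placed in the group by its treatment alone, without a replicate number; it is called the unmatched combination library.

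Proteins that enter the secretory pathway fold in the endoplasmic reticulum (ER), and unfolded protein there is sensed by the transmembrane proteins IRE1 alpha (gene ERN1), PERK (EIF2AK3) and ATF6. IRE1 alpha splices XBP1 mRNA into the form that encodes an active transcription factor, PERK phosphorylates the initiation factor eIF2 alpha and so favours translation of ATF4, and ATF6 is cut in the Golgi to release a transcription factor. The targets include ER chaperones, protein disulfide isomerases, the machinery that degrades misfolded protein and, for ATF4, amino acid synthesis and the genes DDIT3, TRIB3 and CHAC1. Counts per gene report mRNA abundance and not XBP1 splicing, eIF2 alpha phosphorylation or ATF6 cleavage. They also cannot tell fewer cells of a kind from less RNA per cell.

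The libraries held 17846211 to 22487333 counts. Epithelial markers (EPCAM, KRT8, KRT18, CDH1, ESR1 and PAX8) were each above 1 CPM (counts scaled to library size) and summed to 3116 to 4473 CPM, against 0.853 to 2.03 CPM for 5 leukocyte markers, 7.66 to 10.1 CPM for 4 endothelial markers and 137 to 200 CPM for 6 fibroblast markers. Of the fibroblast sum, COL1A1 alone gave 123 to 185 CPM, and DCN, LUM and PDGFRB reached at most 0.113 CPM. The hormone treatments were visible at known targets. TSC22D3, a glucocorticoid-induced gene, stood at 119 and 150 CPM with dexamethasone against 13.0 and 15.5 CPM with DMSO. PGR, the estrogen-induced progesterone receptor gene, stood at 41.0 and 31.8 CPM with estradiol against 4.09 and 2.53 CPM with DMSO. Dexamethasone replicate 1 stood apart at PGR, with 8.91 CPM against 2.47 CPM in replicate 2. It also stood apart at GREB1, the other estradiol target checked, with 17.7 CPM against 6.85 CPM in replicate 2. GREB1 with DMSO stood at 8.03 and 6.71 CPM. Every comparison with dexamethasone alone uses this library, and the cause of its difference was not tested.

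Sequence elements of the response were read from the promoters first. They describe the members and do not assign each of them to an arm. RefSeq promoter windows (GRCh38.p14, 250 bases before to 50 after the annotated start) were matched by symbol for 33 of the 36 members, all except SHMT2, PDIA3 and PSPH. The ER stress response element, read here as CCAAT and CCACG with 9 bases between them on either strand and known to be bound by ATF6 together with NF-Y, was present in 6 of 33 members (18.2%) and in 25 of the 27305 genes of the RefSeq promoter table (0.0916%). Of the 6, 4 are folding enzymes or lectins (CALR, CANX, CRELD2 and PDIA6) and 2 are chaperones (HSPA5 and HSP90B1, the latter with 2 matches). The members were chosen as known genes of this response, and the element is a known one of the same response. Its higher share among them is therefore not a finding of these data. The same holds for the other elements of the response given below. The matches are printed below in capitals with 20 bases on each side, on the strand of the gene. In CALR, CRELD2 and the second HSP90B1 match the element lies on the opposite strand, so the capitals begin with CGTGG and end with ATTGG.
HSPA5, chr9:125241371-125241429, minus strand: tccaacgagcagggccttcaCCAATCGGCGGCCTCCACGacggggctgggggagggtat
HSP90B1, chr12:103930196-103930254, plus strand: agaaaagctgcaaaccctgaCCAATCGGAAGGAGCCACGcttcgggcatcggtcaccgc
HSP90B1, chr12:103930301-103930359, plus strand: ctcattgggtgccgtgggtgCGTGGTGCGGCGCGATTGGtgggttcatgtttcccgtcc
CALR, chr19:12938364-12938422, plus strand: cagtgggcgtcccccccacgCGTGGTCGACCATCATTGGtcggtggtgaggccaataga
CANX, chr5:179698758-179698816, plus strand: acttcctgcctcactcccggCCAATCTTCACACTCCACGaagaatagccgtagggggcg
CRELD2, chr22:49918534-49918592, plus strand: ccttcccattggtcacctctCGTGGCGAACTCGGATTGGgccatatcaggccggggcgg
PDIA6, chr2:10812833-10812891, minus strand: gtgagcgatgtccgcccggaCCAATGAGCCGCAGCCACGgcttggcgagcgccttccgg

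The C/EBP-ATF response element, read as TGATGNAA on either strand and known to be bound by ATF4 with C/EBP partners, was present in 3 of 33 members (9.09%) and in 4.46% of the genes of the promoter table. The 3 members were ASNS, CHAC1 and HERPUD1. In ASNS the match began 68 bases before the annotated start. In CHAC1 and HERPUD1 it lies on the opposite strand.
ASNS, chr7:97872449-97872496, minus strand: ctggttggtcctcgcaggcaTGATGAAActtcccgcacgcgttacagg
CHAC1, chr15:40953242-40953289, plus strand: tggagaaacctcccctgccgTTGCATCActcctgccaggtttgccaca
HERPUD1, chr16:56931946-56931993, plus strand: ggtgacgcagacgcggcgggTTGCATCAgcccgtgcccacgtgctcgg

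The core of the unfolded protein response element, TGACGTGG on either strand, was found in HYOU1 alone among the members (3.03%, against 0.927% of the genes of the promoter table). Its last 5 letters are CCACG on the other strand, so it can overlap the ER stress response element, but HYOU1 held no match to the latter. A glucocorticoid response element was read as AGAACA and TGTTCT with 3 bases between them and at most 1 mismatch in the 12 bases, and an estrogen response element as GGTCA and TGACC with 3 bases between them. Neither was found in a member's window (0 of 33 each), against 0.19% and 0.0732% of the genes of the promoter table. These are matches of letters in a window of 300 bases around the start, and no binding was measured at them here. ERN1, the only member called in a comparison in the fit of all 8 libraries, held none of these elements in its window. The 250 bases before its annotated start are shown whole, in lower case because no element is marked.
ERN1, chr17:64130145-64130394, minus strand: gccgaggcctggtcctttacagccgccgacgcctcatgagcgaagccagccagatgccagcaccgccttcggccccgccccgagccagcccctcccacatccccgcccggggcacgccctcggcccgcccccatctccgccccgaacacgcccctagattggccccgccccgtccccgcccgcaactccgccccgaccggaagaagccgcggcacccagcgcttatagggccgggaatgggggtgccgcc

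Across the 8 libraries the members varied little. The highest library exceeded the lowest by a median of 1.24-fold over the 36 members, from 1.10-fold for HYOU1 to 2.15-fold for ERN1, and 31 of 36 (86.1%) stayed under 1.5-fold. Over all 14201 genes tested the median was 1.40-fold and 61.2% stayed under 1.5-fold. The 5 members at or above 1.5-fold were ERN1, CHAC1 (1.67-fold), STC2 (1.60-fold), TRIB3 (1.58-fold) and SDF2L1 (1.52-fold). The members also lay at higher counts than most genes, with a median of 92.4 CPM against 26.0 CPM, and the part of this in the narrower range was not tested. Differences between the 2 libraries of a group had a median size of 0.10 (DMSO), 0.15 (dexamethasone), 0.10 (estradiol) and 0.09 (combination) on the log2 scale.

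**Figure D1:**
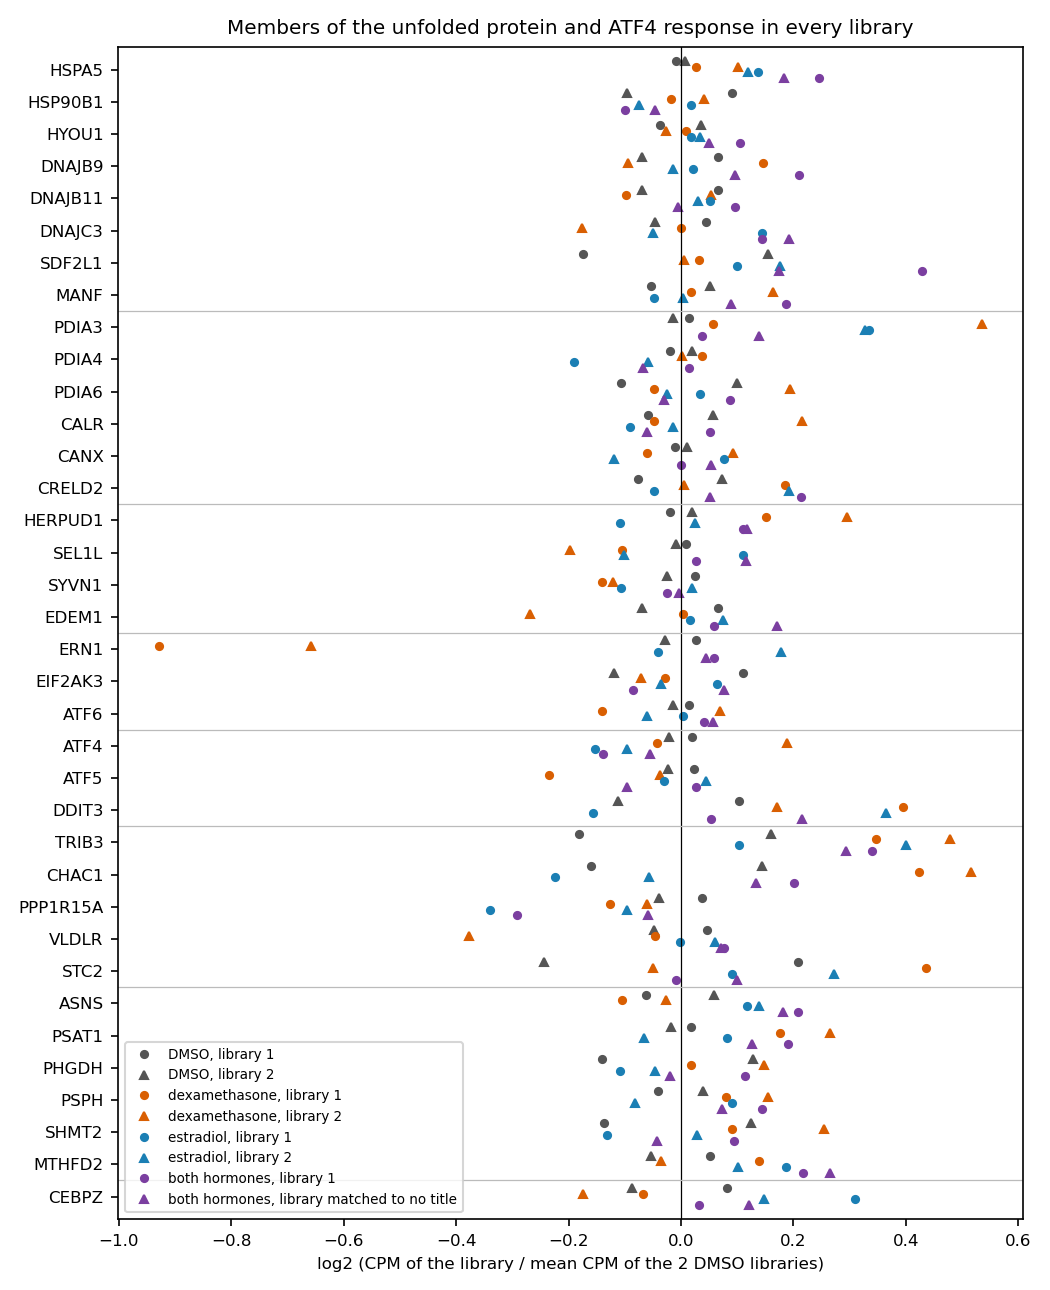
Log2 ratio of each library's CPM to the mean of the 2 DMSO libraries (x axis) for each of the 36 members (y axis, grouped by role), with circles for library 1 and triangles for library 2 or the unmatched combination library. Most points lie close to 0, and the 2 dexamethasone libraries of ERN1 lie farthest to the left.

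Of the 36 members, 1 changed in any of the 6 comparisons at an adjusted p under 0.05 (edgeR quasi-likelihood test, Benjamini-Hochberg adjustment over all genes tested in a comparison). That member was ERN1, which was higher with both hormones than with dexamethasone alone. No member was called with dexamethasone against DMSO, where 0.965% of all genes tested were called, with estradiol against DMSO (1.8%), with both hormones against DMSO (2.19%), with both hormones against estradiol (0.275%) or in the test of departure from additivity (0.0211%). With both hormones against dexamethasone, 1 of 36 members (2.78%) and 2.67% of all genes were called, so the members' share was near that of all genes. The count of all genes called in that comparison moved from 379 to 90 without dexamethasone replicate 2, 89 without combination replicate 1 and 100 without the unmatched combination library. At an unadjusted p under 0.05 the members numbered 6 of 36 with dexamethasone (16.7%, all genes 9.84%), 1 with estradiol (2.78%, all genes 11.4%), 5 with both against DMSO (13.9%, all genes 10.8%), 1 with both against estradiol (2.78%, all genes 6.37%), 5 with both against dexamethasone (13.9%, all genes 16.7%) and 2 for departure from additivity (5.56%, all genes 5.16%). The comparisons share their control libraries and are not independent of each other.

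ERN1 encodes IRE1 alpha, the kinase and endoribonuclease that splices XBP1 mRNA. It was counted at 153 and 159 reads with DMSO, 86 and 89 with dexamethasone, 136 and 202 with estradiol, and 185 and 181 with both hormones. Scaled to library size these were 8.03 and 7.73 CPM with DMSO, 4.14 and 4.99 CPM with dexamethasone, 7.66 and 8.92 CPM with estradiol, and 8.21 and 8.13 CPM with both. Both dexamethasone libraries lay below all 6 others. The combination lay just above DMSO and within the range of estradiol. The means were 7.88 ± 0.212, 4.57 ± 0.604, 8.29 ± 0.892 and 8.17 ± 0.0593 CPM (SD, n = 2 each) in the same order.

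With both hormones, ERN1 was 1.79-fold higher than with dexamethasone alone, a log2 difference of 0.84 ± 0.16 (SE; 95% interval 0.48 to 1.20; adjusted p = 0.0228, edgeR quasi-likelihood). Dexamethasone against DMSO gave a log2 difference of -0.79 ± 0.16 (95% interval -1.15 to -0.43), which did not pass after adjustment (unadjusted p = 0.000587, adjusted p = 0.0575, edgeR quasi-likelihood). Both hormones against DMSO gave 0.05 ± 0.15 (95% interval -0.29 to 0.39), and estradiol against DMSO gave 0.08 ± 0.15 (95% interval -0.26 to 0.42). Both hormones against estradiol gave -0.03 ± 0.15 (95% interval -0.36 to 0.31). The difference between the dexamethasone effect with estradiol and that without it, tested as departure from additivity, gave 0.76 ± 0.22 (95% interval 0.27 to 1.26; unadjusted p = 0.00608) and did not pass after adjustment (adjusted p = 0.76, edgeR quasi-likelihood). The call against dexamethasone rests on few libraries: it was lost without dexamethasone replicate 1 (log2 difference 0.71, adjusted p = 0.0924), without dexamethasone replicate 2 (adjusted p = 0.0753), without combination replicate 1 (adjusted p = 0.152) and without the unmatched combination library (adjusted p = 0.148), all by edgeR. Without dexamethasone replicate 1, ERN1 with dexamethasone against DMSO was -0.66 (adjusted p = 0.221, edgeR) and departure from additivity was 0.63 (adjusted p = 0.767, edgeR).

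The other sensors showed no such pattern. EIF2AK3, which encodes PERK, ranged from 34.3 to 40.2 CPM over the 8 libraries, and dexamethasone against DMSO gave a log2 difference of -0.05 ± 0.11. ATF6 ranged from 77.0 to 89.1 CPM and gave -0.03 ± 0.10. XBP1, the substrate of IRE1 alpha, is not a member and was picked with its values already known. It measured 182 and 208 CPM with DMSO, 216 and 233 with dexamethasone, 221 and 224 with estradiol, and 257 and 255 with both, so each treated group lay above DMSO and the combination lay above the rest. Both hormones against DMSO gave 0.39 ± 0.10 (95% interval 0.18 to 0.60), which did not pass after adjustment (adjusted p = 0.07, edgeR quasi-likelihood).

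**Figure D2:**
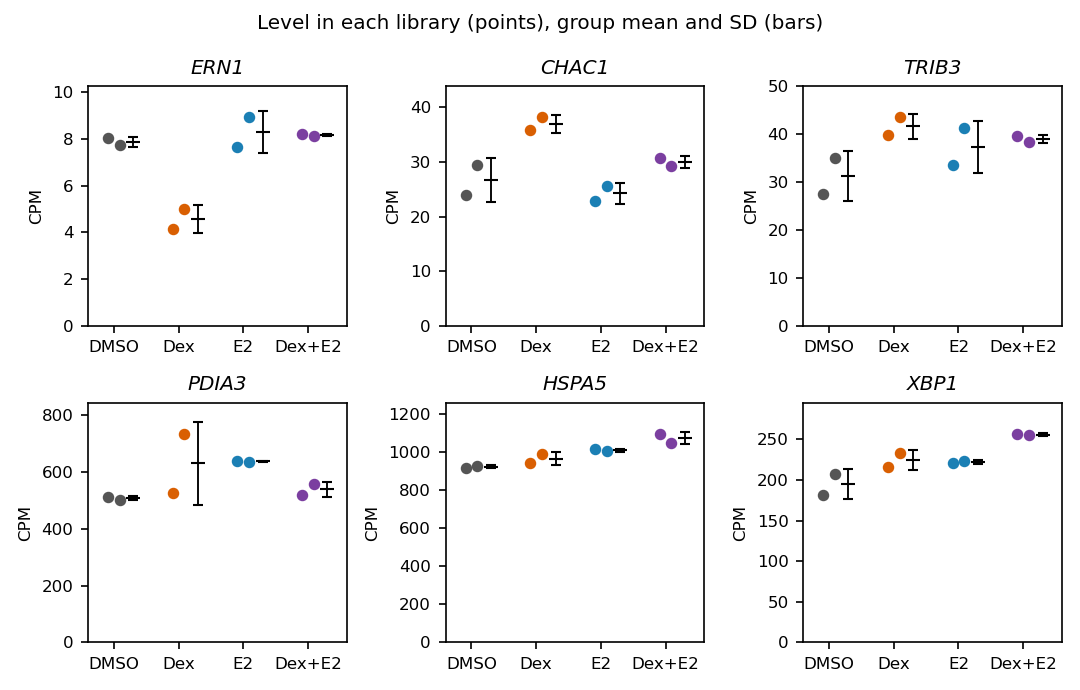
CPM in each library (points) with the group mean and SD (n = 2) beside them, for ERN1, CHAC1, TRIB3, PDIA3, HSPA5 and XBP1 in the 4 groups, on axes that start at 0. ERN1 is lowest in the dexamethasone group (4.14 and 4.99 CPM), and XBP1 is highest in the combination group (257 and 255 CPM).

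The ER chaperones and their co-chaperones held 8 members, none of which was called in any comparison. HSPA5, the gene of the Hsp70 chaperone BiP and the usual readout of ER stress, measured 919 and 929 CPM with DMSO, 941 and 991 with dexamethasone, 1016 and 1004 with estradiol, and 1096 and 1050 with both. The 3 treated groups all lay above DMSO and the combination lay highest. Both hormones against DMSO gave a log2 difference of 0.22 ± 0.09 (95% interval 0.02 to 0.41; unadjusted p = 0.0366, adjusted p = 0.41, edgeR quasi-likelihood), or 16.1% more. SDF2L1, a component of the BiP complex, measured 22.3 and 28.0 CPM with DMSO and 33.9 and 28.4 CPM with both hormones, a log2 difference of 0.31 ± 0.13 (adjusted p = 0.425, edgeR quasi-likelihood). MANF, a secreted ER protein, gave 0.16 ± 0.10 with both hormones against estradiol (adjusted p = 0.924, edgeR quasi-likelihood), among the 3 smallest p-values of the members there.

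DNAJB9, a BiP co-chaperone known as a target of spliced XBP1, measured 18.6 and 17.0 CPM with DMSO, 19.7 and 16.7 with dexamethasone, 18.1 and 17.6 with estradiol, and 20.6 and 19.0 with both. The combination against DMSO gave 0.16 ± 0.12, and the other groups overlapped DMSO. DNAJC3, which encodes a co-chaperone and inhibitor of PERK, measured 171 and 151 CPM with dexamethasone and 189 and 195 CPM with both, a log2 difference of 0.25 ± 0.10 (adjusted p = 0.242, edgeR quasi-likelihood), or 0.34 without dexamethasone replicate 1; its antisense gene DNAJC3-AS1 held 68 to 111 counts a library, and whether counting used strand is not given in the sources used here. HSP90B1 (GRP94) ranged from 1125 to 1283 CPM, HYOU1 (an Hsp70-like nucleotide exchange factor for BiP) from 450 to 496 CPM and DNAJB11 (a BiP co-chaperone) from 178 to 203 CPM. Over the 8 genes the median log2 difference with both hormones against DMSO was 0.15, with 7 positive.

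The disulfide isomerases, lectin chaperones and CRELD2 were also without a call. PDIA3, which encodes the isomerase that works with calnexin and calreticulin, measured 512 and 502 CPM with DMSO, 527 and 734 with dexamethasone, 639 and 636 with estradiol, and 520 and 558 with both. Dexamethasone replicate 2 was the highest library, both estradiol libraries were above all but that one, and the combination stood near DMSO. Estradiol against DMSO gave 0.33 ± 0.14 (unadjusted p = 0.0332, adjusted p = 0.363), both hormones against estradiol gave -0.24 ± 0.14 (adjusted p = 0.898), and departure from additivity gave -0.56 ± 0.19 (unadjusted p = 0.0145, adjusted p = 0.849; edgeR quasi-likelihood for each). Without dexamethasone replicate 1, PDIA3 moved to 0.54 ± 0.10 with dexamethasone against DMSO (from 0.32 ± 0.14; adjusted p = 0.0605) and to -0.45 ± 0.11 with both hormones against dexamethasone (from -0.23; adjusted p = 0.0517), and departure from additivity to -0.78 ± 0.14 (adjusted p = 0.236; edgeR quasi-likelihood for each). A pseudogene, PDIA3P1, held 802 to 1124 counts a library in its own row, so the split of reads between the pair is uncertain. The lectins CALR and CANX ranged from 1963 to 2427 CPM and from 1418 to 1642 CPM, the isomerases PDIA4 and PDIA6 from 386 to 452 CPM and from 306 to 376 CPM, and CRELD2, an ER stress-induced secreted protein, from 74.5 to 91.1 CPM. With dexamethasone all 6 differences from DMSO were positive, with a median of 0.08.

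ER-associated degradation was represented by HERPUD1, SEL1L, SYVN1 and EDEM1. HERPUD1, a scaffold of the ubiquitin ligase complex, measured 65.0 and 66.7 CPM with DMSO, 73.1 and 80.8 with dexamethasone, 61.1 and 67.0 with estradiol, and 71.1 and 71.4 with both. Both groups with dexamethasone lay above DMSO, by 0.22 ± 0.10 for dexamethasone alone (unadjusted p = 0.0395, adjusted p = 0.475, edgeR quasi-likelihood) and 0.11 ± 0.10 for the combination. The other 3 lay the other way with dexamethasone: SEL1L, the adaptor of the ligase, gave -0.15 ± 0.10, SYVN1 (the ligase HRD1) gave -0.13 ± 0.09 and EDEM1 (a mannosidase-like lectin) gave -0.12 ± 0.12, none of them called. SEL1L with both hormones against dexamethasone gave 0.22 ± 0.10 (unadjusted p = 0.0452, adjusted p = 0.286, edgeR quasi-likelihood). Without dexamethasone replicate 1 the differences from DMSO were 0.29 for HERPUD1, -0.20 for SEL1L, -0.12 for SYVN1 and -0.27 for EDEM1, and SEL1L with both against dexamethasone was 0.27.

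The transcription factors of the ATF4 arm stayed close to DMSO. ATF4 measured 486 and 472 CPM with DMSO, 465 and 546 with dexamethasone, 431 and 448 with estradiol, and 435 and 461 with both. Both groups with estradiol lay below DMSO, by log2 differences of -0.12 ± 0.10 for estradiol and -0.10 ± 0.10 for the combination, neither called. ATF4 is regulated at translation, which mRNA counts do not measure. DDIT3, the gene of the pro-apoptotic factor CHOP, measured 5.20 and 4.47 CPM with DMSO, 6.36 and 5.44 with dexamethasone, 4.34 and 6.23 with estradiol, and 5.01 and 5.61 with both. Its 77 to 141 counts a library left the dexamethasone difference at 0.29 ± 0.21 (95% interval -0.17 to 0.75), or 0.17 without dexamethasone replicate 1. ATF5, an ATF4-related factor, ranged from 56.9 to 69.0 CPM.

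Among the feedback genes and effectors of the ATF4 arm, CHAC1 and TRIB3 had their highest means with dexamethasone, without a call. CHAC1, which degrades glutathione, measured 23.9 and 29.5 CPM with DMSO, 35.8 and 38.2 with dexamethasone, 22.9 and 25.7 with estradiol, and 30.7 and 29.3 with both. Both dexamethasone libraries lay above all 6 others, and the estradiol libraries were low. Dexamethasone against DMSO gave 0.47 ± 0.12 (95% interval 0.20 to 0.74; unadjusted p = 0.00275, adjusted p = 0.158), a 1.38-fold difference; both hormones against dexamethasone gave -0.30 ± 0.12 (adjusted p = 0.236) and both against estradiol 0.30 ± 0.12 (adjusted p = 0.707; edgeR quasi-likelihood for each). The first was 0.51 (adjusted p = 0.209, edgeR) and the second -0.35 (adjusted p = 0.257, edgeR) without dexamethasone replicate 1. TRIB3, a pseudokinase that restrains ATF4 and AKT, measured 27.6 and 34.9 CPM with DMSO, 39.7 and 43.5 with dexamethasone, 33.6 and 41.2 with estradiol, and 39.5 and 38.3 with both.

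For TRIB3, dexamethasone against DMSO gave 0.41 ± 0.14 (adjusted p = 0.303), estradiol 0.26 ± 0.14 (adjusted p = 0.538), both hormones 0.32 ± 0.14 (adjusted p = 0.425) and departure from additivity -0.36 ± 0.19 (adjusted p = 0.973; edgeR quasi-likelihood for each). The first and the last were 0.48 and -0.42 without dexamethasone replicate 1. PPP1R15A (GADD34), which directs eIF2 alpha dephosphorylation, measured 30.6 and 29.1 CPM with DMSO, 27.4 and 28.6 with dexamethasone, 23.6 and 28.0 with estradiol, and 24.4 and 28.7 with both, so all 6 treated libraries lay below both DMSO libraries by small amounts. The glycoprotein hormone gene STC2 ranged from 32.9 to 52.6 CPM, with dexamethasone replicate 1 at 52.6 and replicate 2 at 37.6 CPM; its difference with dexamethasone was 0.22 ± 0.17, and -0.05 without replicate 1. VLDLR, a lipoprotein receptor gene, ranged from 10.3 to 14.2 CPM.

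The amino acid, serine and one-carbon enzymes held 6 members and no call. ASNS, asparagine synthetase, measured 173 and 188 CPM with DMSO, 168 and 178 with dexamethasone, 196 and 199 with estradiol, and 209 and 205 with both. The estradiol-treated groups lay above the other groups, and both hormones against dexamethasone gave 0.26 ± 0.09 (unadjusted p = 0.0134, adjusted p = 0.168, edgeR quasi-likelihood). PSAT1, of the serine pathway, measured 385 and 376 CPM with DMSO, 430 and 457 with dexamethasone, 402 and 363 with estradiol, and 434 and 415 with both. There the groups with dexamethasone were higher, by 0.22 ± 0.09 for dexamethasone alone (unadjusted p = 0.0376, adjusted p = 0.468, edgeR quasi-likelihood). Leaving out dexamethasone replicate 1 gave 0.22 for ASNS with both against dexamethasone and 0.27 for PSAT1 with dexamethasone. MTHFD2, a mitochondrial folate enzyme, had the smallest p among the members with both hormones against DMSO: 239 and 222 CPM against 268 and 277 CPM, a log2 difference of 0.24 ± 0.10 (unadjusted p = 0.0288, adjusted p = 0.369, edgeR quasi-likelihood). PHGDH, PSPH and SHMT2 ranged from 350 to 428, 54.8 to 64.6 and 375 to 492 CPM.

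CEBPZ, a transcription factor whose symbol is also an older name of DDIT3, is a separate row of the table. It measured 48.4 and 43.1 CPM with DMSO, 43.7 and 40.6 with dexamethasone, 56.7 and 50.7 with estradiol, and 46.8 and 49.8 with both. The estradiol group was the highest, by 0.23 ± 0.11 against DMSO (adjusted p = 0.453, edgeR quasi-likelihood).

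**Figure D3:**
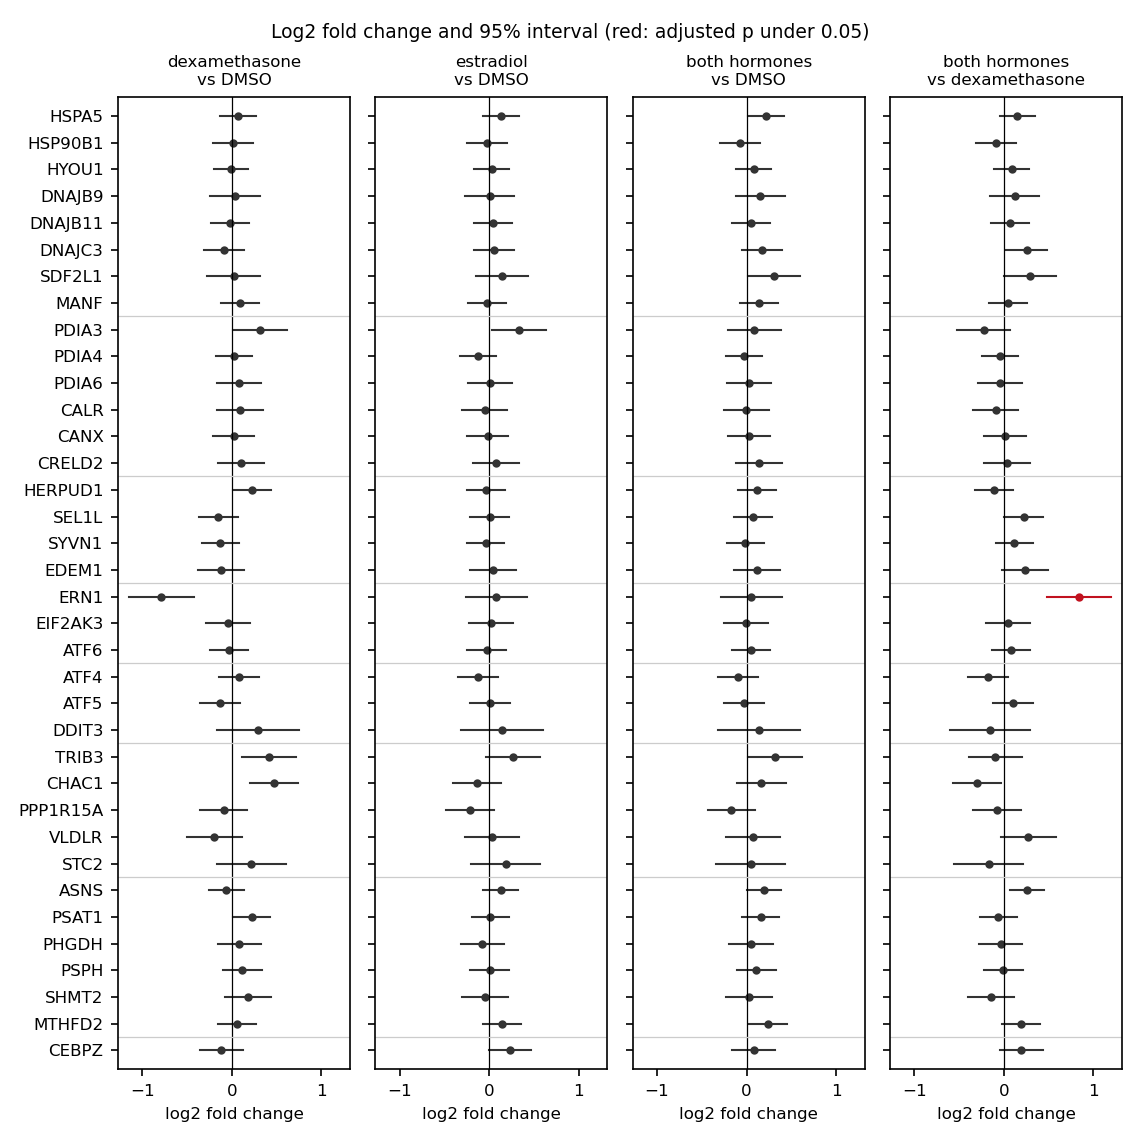
Log2 fold change with its 95% interval (x axis) for the 36 members (y axis, grouped by role) in 4 comparisons, in red where the adjusted p was under 0.05. The single red interval is ERN1 with both hormones against dexamethasone (0.48 to 1.20).

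The size of the changes that these libraries can hold was limited for most members. With dexamethasone against DMSO the 95% interval lay within 1.5-fold in either direction for 30 of 36 members (83.3%, all genes 66.3%), and the exceptions were DDIT3, CHAC1, PDIA3, ERN1, TRIB3 and STC2. With estradiol it did so for 34 (94.4%, all genes 66.6%), all but DDIT3 and PDIA3. With both hormones against DMSO it did so for 33 (91.7%, all genes 67.0%), all but DDIT3, TRIB3 and SDF2L1. The intervals of the single members are not adjusted for their number.

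The members' differences leaned upward when both hormones were present. The members were chosen with earlier results of these data known, so this lean is a description and not a test. They also lay at higher counts than most genes (median 92.4 against 26.0 CPM). The part of this in the shares below was not tested. With both hormones against DMSO the median log2 difference was 0.08 over the 36 members and -0.00 over all genes, and 28 of 36 members (77.8%) were positive against 49.7% of all genes. In both combination libraries the median member lay 0.08 above its DMSO mean, while the median in the other treated libraries was 0.01 to 0.03. Both combination libraries exceeded both DMSO libraries at 17 of 36 members (47.2%, all genes 19.8%) and lay below both at 2 (5.56%, all genes 19.3%). With both hormones against estradiol, 13 members were higher without overlap (36.1%, all genes 18.1%) and 2 lower (5.56%, all genes 19.6%), with a median difference of 0.06. With both against dexamethasone these counts were 12 (33.3%, all genes 24.8%) and 5 (13.9%, all genes 25%), with a median of 0.04. Without dexamethasone replicate 1 that last median was -0.02, and without dexamethasone replicate 2 it was 0.05; the counts without replicate 1 were 15 higher (41.7%, all genes 40.4%) and 14 lower (38.9%, all genes 41.3%), with 1 dexamethasone library left to compare.

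For dexamethasone alone against DMSO, 8 members were higher without overlap (22.2%, all genes 18.5%) and 5 lower (13.9%, all genes 17.7%), with a median of 0.03. With dexamethasone replicate 1 left out, the median was 0.02 and the counts were 16 higher (44.4%, all genes 37.5%) and 10 lower (27.8%, all genes 35.8%). For estradiol alone, 5 were higher (13.9%, all genes 18.3%) and 3 lower (8.33%, all genes 17.9%), with a median of 0.01. These counts describe small differences: with both hormones against DMSO, 34 of 36 members differed by less than 0.25 on the log2 scale and the largest difference was 0.32, at TRIB3. By role, the mean log2 deviation from DMSO in the 2 combination libraries was 0.17 and 0.09 for the chaperones and 0.16 and 0.10 for the amino acid enzymes. The sensors stood at -0.36 and -0.21 in the 2 dexamethasone libraries, which is ERN1, since EIF2AK3 and ATF6 lay within 0.05 of DMSO in the fit.

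**Figure D4:**
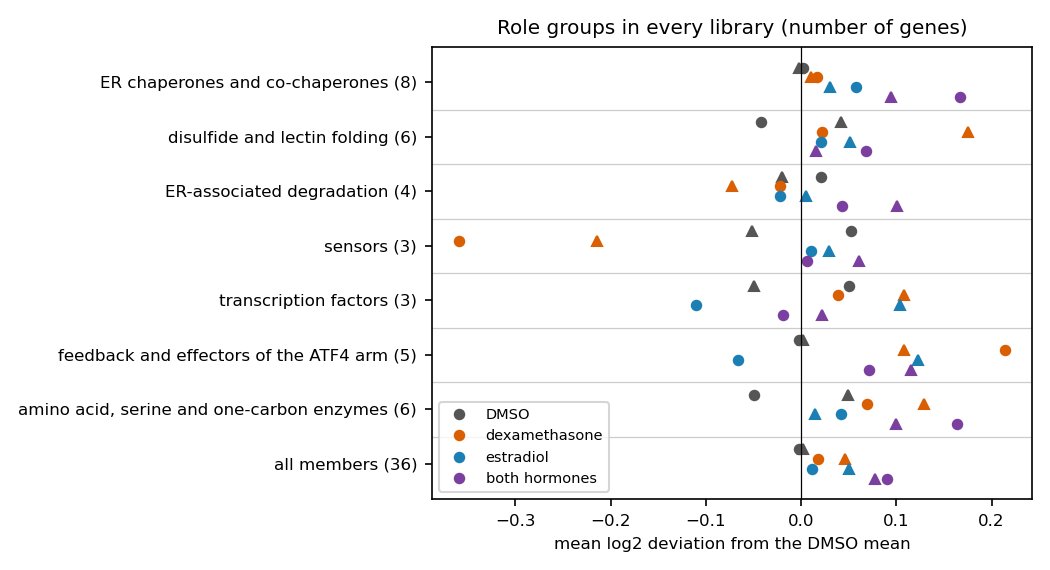
Mean log2 deviation from the DMSO mean (x axis) of the genes of each role (y axis, number of genes in brackets) in each of the 8 libraries, with circles for library 1 and triangles for library 2 or the unmatched combination library. The sensors lie lowest in the 2 dexamethasone libraries (-0.36 and -0.21), and within the chaperones the 2 combination libraries lie above the other 6 (0.17 and 0.09).

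Genes of the pathway outside the 36 were read from 2 further lists. Of 40 other unfolded protein response genes, 39 were tested and none was called in any of the 6 comparisons (edgeR quasi-likelihood). Those at an unadjusted p under 0.05 numbered 1 with dexamethasone (2.56%, all genes 9.84%), 1 with estradiol (2.56%, all genes 11.4%) and 3 with both against DMSO (7.69%, all genes 10.8%). They numbered 0 with both against estradiol (all genes 6.37%), 4 with both against dexamethasone (10.3%, all genes 16.7%) and 0 for departure from additivity (all genes 5.16%). Their median log2 difference with both hormones against DMSO was 0.09. Of the genes that hold the ER stress response element in the promoter window, 16 were tested, 6 of them members. None was called with any treatment against DMSO, with log2 differences from -0.23 to 0.20 for dexamethasone and -0.56 to 0.39 for both hormones. With both hormones against dexamethasone 1 of the 16 was called: SYNPO, not a member, with a log2 difference of -0.70 (adjusted p = 0.034, edgeR quasi-likelihood), named here because it was the only call.

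Of 40 other genes of ATF4 and the integrated stress response, all tested, 1 was called higher with dexamethasone, 3 higher and 2 lower with estradiol, 4 higher and 1 lower with both hormones against DMSO, 2 higher and 1 lower with both against dexamethasone, and none with both against estradiol or for departure from additivity. These are 2.5%, 12.5%, 12.5%, 7.5%, 0% and 0% of the list in that order, beside the shares of all genes given above. At an unadjusted p under 0.05 the list held 7, 17, 12, 12, 5 and 3 genes in the same order. These are 17.5%, 42.5%, 30%, 30%, 12.5% and 7.5% of the list, beside 9.84%, 11.4%, 10.8%, 16.7%, 6.37% and 5.16% of all genes. The list was chosen with earlier results of these data known. Without dexamethasone replicate 1 the calls were 0 with dexamethasone and 3 higher and 1 lower with both against dexamethasone, where SLC3A2 was added. NUPR1, a stress-induced chromatin regulator, rose with dexamethasone from 10.7 and 12.3 CPM to 19.2 and 19.3 CPM, by 0.75 ± 0.14 (adjusted p = 0.0389, edgeR quasi-likelihood). Leaving out either estradiol library kept that call, and leaving out any other library lost it (adjusted p from 0.0598 to 0.222; 0.14 without dexamethasone replicate 1). DDIT4, an inhibitor of mTORC1, fell with estradiol (log2 difference -1.22 ± 0.09, adjusted p = 0.000221) and with both hormones against DMSO (-0.77 ± 0.09, adjusted p = 0.000937; edgeR quasi-likelihood for each).

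The other called genes of that list were SLC7A5, SLC3A2, CEBPB, VEGFA and KLHL24. SLC7A5, the light chain of the large neutral amino acid transporter, rose by 0.96 ± 0.16 with estradiol (adjusted p = 0.01) and 0.88 ± 0.16 with both hormones (adjusted p = 0.0121). Leaving out either estradiol library lost the first of these calls (adjusted p = 0.104 and 0.132), and the second was lost without DMSO replicate 2 (0.0535), combination replicate 1 (0.0643) or the unmatched combination library (0.06). Its heavy chain partner SLC3A2 rose by 0.63 ± 0.14 with both (adjusted p = 0.0432), a call that was kept without either dexamethasone library and lost without any other library (adjusted p from 0.0857 to 0.307). CEBPB, a C/EBP factor that pairs with ATF4, rose by 0.84 ± 0.10 with estradiol (adjusted p = 0.00205), and VEGFA, an angiogenic growth factor, by 0.70 ± 0.10 (adjusted p = 0.00604; 0.0616 and 0.0865 without estradiol replicate 1 or 2). KLHL24, a ubiquitin ligase adaptor, fell with estradiol (log2 difference -0.82 ± 0.11, adjusted p = 0.00334; 0.0565 without estradiol replicate 2). With both hormones against dexamethasone the calls were SLC7A5 (log2 difference 0.76, adjusted p = 0.0299), VEGFA (0.45, adjusted p = 0.0487) and DDIT4 (-1.01, adjusted p = 0.00105). Leaving out 1 library moved SLC7A5 there between 0.50 and 1.08, VEGFA between 0.33 and 0.57 and DDIT4 between -1.07 and -0.96. All are edgeR quasi-likelihood tests, and which pathway lies behind these changes was not tested. No member was called with any treatment against DMSO in the fit of all 8 libraries.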

How the data were processed

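RNA was sequenced from 8 libraries of Ishikawa cells, made with a stranded mRNA kit per the labels' protocols. The authors deposited raw read counts per gene, which were used here; a normalized table was not. The submitters' processing notes name HISAT2 2.0.4, Subread, featureCounts 1.5.1, DESeq2 1.14.1 and hg19, with no roles or settings; strand use is not given in the sources used here. The 36 members and the other lists were chosen with earlier results of these data known.

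Genes were filtered with filterByExpr, scaled by TMM and tested by edgeR 4.0.16 (R 4.3.3) quasi-likelihood in 1 fit of all 8 libraries with 4 residual degrees of freedom. Benjamini-Hochberg adjustment covered all genes tested in each comparison, with a threshold of 0.05. Alternatives were RLE scaling, no filter, CPM above 1 in at least 2 libraries, DESeq2 1.42.0, limma-voom (limma 3.58.1), fits of only the groups compared, a replicate block and leaving out each library. CPM levels depend on gene length. Comparisons of levels between genes, as for the cell type markers and the median level of the members, are therefore rough. The code was tested on simulated data. Libraries held 17846211 to 22487333 counts, and precision is limited by 2 libraries a group and, for genes with few reads such as ERN1 and DDIT3, by counting error. The 2 libraries of each group differed by more than sampling noise (chi-square per gene from 9.93 to 25.6), the combination included.

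Differences with their SE were given for members called in at least 1 comparison and for the 3 members with the smallest p in each. They were also given for some members outside this rule, such as EIF2AK3, ATF6, SYVN1 and EDEM1. Intervals and unadjusted p-values were given for only some of these. Library values were given for HSPA5, DNAJB9, HERPUD1, ATF4, DDIT3, TRIB3, CHAC1, ASNS and PSAT1, and for ERN1 as a member called. Those of PDIA3, PPP1R15A, CEBPZ and the non-member XBP1 were shown outside this rule. Promoter windows were RefSeq sequences of GRCh38.p14, not the build of the counts, and were joined by symbol.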

Additional observations from a re-analysis of the deposited data

How the results depend on the processing

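The number of members called stayed at 0 under every alternative run with estradiol or both hormones against DMSO, both hormones against estradiol and departure from additivity. With dexamethasone against DMSO it was 1 without a filter on low counts (ERN1 lower, adjusted p = 0.0116) and 2 with the replicate block (CHAC1 higher, ERN1 lower). The replicate block moved all genes called there from 106 to 239 over the same 6 numbered libraries, and to 441 with estradiol. Deviations from the group mean correlated positively between same-numbered libraries. The values were 0.243 (DMSO and dexamethasone), 0.153 (DMSO and estradiol) and 0.0493 (dexamethasone and estradiol). The labels state no block, so the main fit had none. Whether same-numbered libraries share a replicate effect was not tested. No paired analysis was run for comparisons with the combination, because both of its columns carry the number 1. The only title of that group left without a column is replicate 2, so the number of the unmatched library could only be inferred. With both hormones against dexamethasone the count was 0 to 1 when 1 library was left out, and ERN1 was called under every other alternative run, including DESeq2 (adjusted p = 0.0161, range over the alternatives 0.00292 to 0.152).

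Leaving out 1 library moved ERN1 between -0.052 and 0.18 with estradiol against DMSO and between -0.13 and 0.10 with both against estradiol. The sign changed without estradiol replicate 2 (-0.052 and 0.10). Among all genes, no filter gave 253, 442, 132, 658 and 32 calls (dexamethasone, estradiol, both against estradiol, both against dexamethasone, departure from additivity) against 137, 256, 39, 379 and 3. Fits of only the groups compared gave 63 calls with dexamethasone and 151 with both against estradiol, and DESeq2 gave 75 with the latter and 15 for departure from additivity; the causes were not tested. Leaving out 1 library gave 78 to 127, 58 to 298, 157 to 325, 10 to 68, 89 to 488 and 1 to 10 calls among all genes in the 6 comparisons (dexamethasone, estradiol and both against DMSO, both against estradiol, both against dexamethasone, departure from additivity). The lowest counts of the first 5 were without DMSO replicate 1, estradiol replicate 2, combination replicate 1, estradiol replicate 1 and combination replicate 1. With 2 libraries a group, the widest intervals among the members were those of DDIT3, STC2 and ERN1.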
